A study of Homo sapiens with 6 samples.

Results

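ATP-binding cassette (ABC) genes encode proteins that bind and split ATP, and most of these proteins use that energy to carry a substrate across a membrane. In COV434 cells exposed to 4-hydroxycyclophosphamide (4HC), transcripts of lipid transporters (ABCA2, ABCA7, ABCA5) and of the porphyrin transporter ABCB6 were more abundant, whereas those of the drug and nucleotide exporter ABCC4, the peroxisomal transporter ABCD2 and the ribosome-associated proteins ABCE1 and ABCF2 were less abundant. No ABC gene met a cutoff of a 2-fold change, and all called changes were modest. The genes were chosen by symbol, as every listed gene named ABC with a subfamily letter from A to G and a number, which gave 41 of the 16798 genes in the table. They comprised 11 genes of subfamily A, 9 of B, 10 of C, 4 of D, 1 of E, 3 of F and 3 of G.

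ABC transporters are built from membrane domains that form the path for the substrate and from nucleotide-binding domains that drive it. Several members of subfamilies B, C and G expel drugs and their conjugates and are known for multidrug resistance of tumours, while members of A and G move sterols and phospholipids, members of D import fatty acids into peroxisomes, and a group within B works in mitochondria. Subfamilies E and F have nucleotide-binding domains without membrane domains and act on ribosomes rather than as transporters.

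Bulk RNA sequencing was performed on COV434, a human line labelled as granulosa cells (GCs), to profile the response to cyclophosphamide (CTX). The 3 control samples carried the label WT, and the 3 treated samples, labelled CTX, had received 15 µM 4HC, an active metabolite of CTX, for 24 h. Cells of both groups were grown in DMEM with fetal bovine serum, the labels name no vehicle for the controls, and all samples come from 1 line at 1 dose and 1 time. The labels do not say whether samples came from separate cultures, so p-values measure only the spread between these samples, which may be technical.

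Depth was even, between 16133786 and 16702316 expected counts (estimated reads assigned to genes) per sample. After removal of low counts 12368 genes were tested with edgeR's quasi-likelihood test, and 4497 of them had a Benjamini-Hochberg adjusted p below 0.05, which was 36.4% of all genes tested, 19.2% being higher and 17.1% lower in 4HC. Of 11 GC markers, 9 were listed and 3 were tested (AMH, INHA and HSD17B1), and none of these passed, with none at an unadjusted p under 0.05 and none called by DESeq2 either. The defining markers FOXL2, FSHR, CYP19A1 and STAR had a mean of at most 1 count in either group, NR5A1 a mean of 1.33 counts in controls, and AMHR2 and CYP11A1 were not analysed here. INHBA, below the filter, had 9, 8 and 15 counts in controls and 2, 6 and 7 in 4HC, lower without overlap. Of 13 markers of other cell types 9 were tested and none passed by either tool, nor at an unadjusted p under 0.05, with a summed level of 82.7 to 86.2 TPM (deposited transcript abundance, scaled to transcript length and to the sample total) in controls and 82.3 to 86.0 TPM in 4HC. Among the fibroblast genes, DCN (11.5 TPM) and LUM (43.2 TPM) were present in controls, whereas COL1A1 (0.257 TPM) and COL1A2 (0.94 TPM) were low. None of these passed the test of change. Of 2 remodelling ATPases, SMARCA2 had a mean of 1.67 counts in controls and SMARCA4 a mean of 412 counts, with a log2 fold change of -0.17 (adjusted p = 0.0584, unadjusted p = 0.0221). In such bulk data, a lower share of cells with a transcript and less of it per cell cannot be told apart.

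Levels in control cells were compared per length, on the deposited TPM scale. ABCE1, which splits ribosomes after termination, stood first at 147 ± 4.50 TPM (mean ± SD, n = 3) and made up 23.1% of the TPM summed over all 41 genes. ABCA3, the phospholipid transporter of lung lamellar bodies, followed at 48.5 ± 0.650 TPM. Next came ABCF3 at 46.5 ± 0.995 TPM, ABCF1 at 43.7 ± 2.12 TPM and the peroxisomal transporter ABCD3 at 41.3 ± 1.46 TPM. The gap between ABCE1 and ABCA3 was far wider than the SDs, whereas the steps between neighbours from ABCA3 to ABCD3 were small beside it. In subfamilies B, C and G the highest genes were ABCB10 at 30.2 ± 0.972 TPM, ABCC5 at 36.5 ± 1.88 TPM and ABCG1 at 2.35 ± 0.176 TPM. In all, 19 genes had 10 TPM or more, 6 had between 1 and 10 TPM, and 16 were below 1 TPM. ABCC6 ranked eighth by TPM at 29.7 ± 3.07, but its effective length in the table was only 618 bases and its normalised read count was 11.9 CPM (reads scaled to the TMM-normalised library size and not to length), so its place in this order rests on short transcripts.

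**Figure D1:**
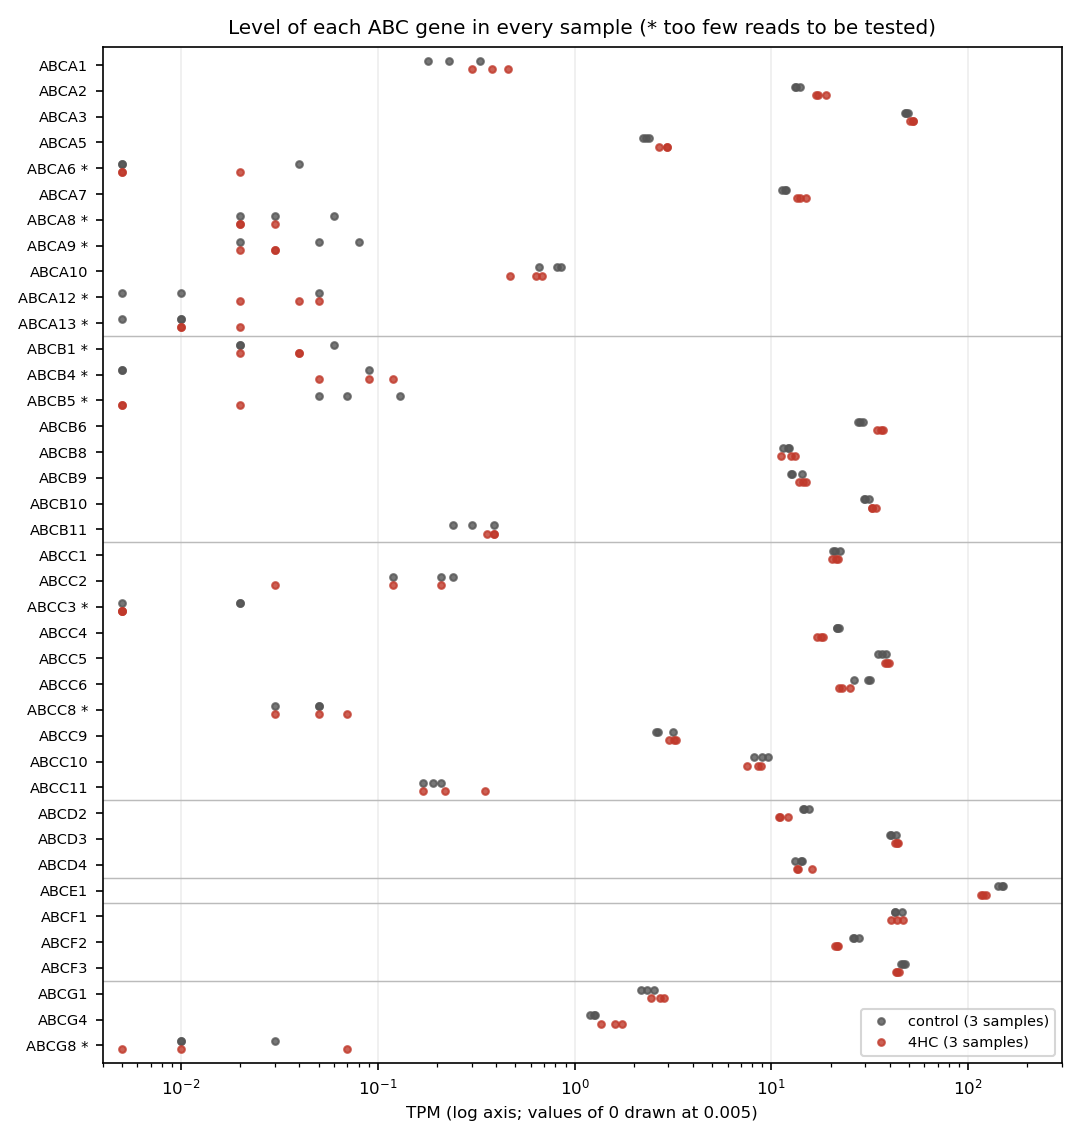
The plot of levels gives deposited TPM (log axis) for 39 of the ABC genes, 1 row per gene, with 3 control and 3 4HC samples as points and lines between subfamilies. ABCE1 stood apart at 147 TPM in controls and 120 TPM in 4HC, and the genes marked with an asterisk lay near 0 in both groups.

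Of the 41 genes, 30 had enough reads to be tested. The other 11 (ABCA6, ABCA8, ABCA9, ABCA12, ABCA13, ABCB1, ABCB4, ABCB5, ABCC3, ABCC8 and ABCG8) did not exceed 6.3 counts in any sample. They are left out of the counts of called genes, and a change in them was not detectable at this depth.

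By adjusted p, 10 of the 30 tested genes rose in 4HC and 5 fell. These 15 genes were 50% of those tested, beside 36.4% of all genes. The share that was higher was 33.3% beside 19.2%, and the share that was lower was 16.7% beside 17.1%. Counted by samples, the groups did not overlap for 12 genes that were higher in 4HC and for 5 that were lower, and over all genes tested 23.4% were higher and 21.9% lower in that way. Changes were small, with absolute log2 fold changes of the 15 genes between 0.10 and 0.63. Under the study's cutoff (2-fold or more, unadjusted p under 0.05), applied here to the edgeR fit, 0 ABC genes and 1.15% of all genes were called. The paper reported far more genes under this cutoff, using DESeq2, and the cause of that difference was not tested. The median log2 fold change of the tested ABC genes was 0.11, and that of all genes tested was 0.0047.

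By subfamily, the median log2 fold change was 0.28 for the 6 tested genes of A, 0.16 for 6 of B, -0.03 for 8 of C, 0.09 for 4 of D, -0.29 for ABCE1, -0.07 for 3 of F and 0.29 for 2 of G. The median of C changed sign when control replicate 2 (0.02) or 4HC replicate 2 (0.01) was left out, and when 10 counts were required in every sample (0.00). In subfamily A, 5 of 6 tested genes rose (4 with DESeq2) and none fell. In subfamily B, 3 of 6 rose (1 with DESeq2) and none fell. Those that rose by edgeR were 83.3% of the tested genes of A and 50% of B, beside 19.2% of all genes tested. No gene of A or B was lower at an unadjusted p under 0.05. Neither tested gene of G passed with edgeR or DESeq2, and 1 of them, ABCG4, was higher at an unadjusted p under 0.05. Summed TPM over subfamily A was 76.1, 77.6 and 77.7 in controls and 89.9, 87.1 and 85.7 in 4HC. Summed TPM over B was 95.7, 95.2 and 96.1 in controls and 110, 105 and 112 in 4HC, also without overlap. Subfamilies C and F went the other way without overlap, with 120, 123 and 121 TPM in controls and 113, 111 and 114 TPM in 4HC for C, and 114, 115 and 122 TPM in controls and 113, 106 and 108 TPM in 4HC for F. The sum of C includes ABCC6, at 26.2, 31.9 and 31.2 TPM in controls and 22.1, 25.2 and 22.9 TPM in 4HC. Much of the gap in C came from this gene, whose TPM rests on short transcripts. Summed without ABCC6, the levels of C overlapped between the groups. Summed TPM over all 41 genes was 638 ± 5.60 in controls and 618 ± 6.56 in 4HC (n = 3 each). The share of ABCE1 in it was 23.1% ± 0.570 in controls and 19.4% ± 0.758 in 4HC.

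**Figure D2:**
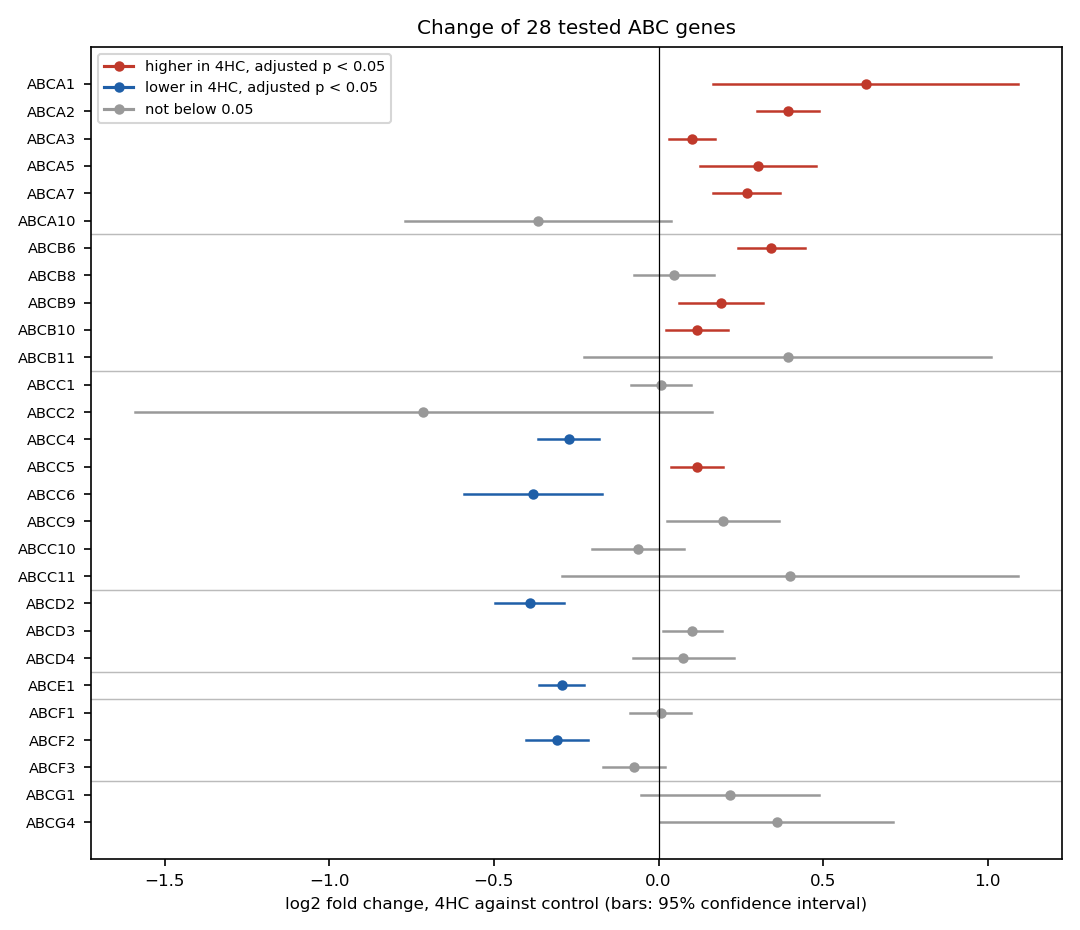
The plot of changes gives the log2 fold change of 28 tested ABC genes, 4HC against control, with its 95% confidence interval, coloured by the call of edgeR's quasi-likelihood test. Intervals were narrow for the abundant genes and ran from -1.59 to 0.16 for ABCC2, one of the least abundant.

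Sequence upstream of the start sites was read for the genes that changed, because they formed 2 sets of opposite direction. RefSeq promoter windows (GRCh38.p14, 250 bases before each annotated start) were found for 32 of the 41 genes, in 44 windows, some of which overlap or belong to alternative starts of 1 gene. Among the others, windows of ABCA8, ABCB4, ABCB5, ABCC1, ABCC3, ABCC8 and ABCG1 were not used here. Windows are shown for the rising genes ABCA2 and ABCB6 with the lowest adjusted p in subfamilies A and B, and for both genes of subfamilies E and F that fell. Capitals mark GGGCGG (a GC box), CCAAT and CACGTG (an E-box) on either strand, so that CCGCCC and ATTGG are the first and second of these read on the other strand, and copies of GGGCGG may share bases.
ABCA2, chr9:137028238-137028487, minus strand: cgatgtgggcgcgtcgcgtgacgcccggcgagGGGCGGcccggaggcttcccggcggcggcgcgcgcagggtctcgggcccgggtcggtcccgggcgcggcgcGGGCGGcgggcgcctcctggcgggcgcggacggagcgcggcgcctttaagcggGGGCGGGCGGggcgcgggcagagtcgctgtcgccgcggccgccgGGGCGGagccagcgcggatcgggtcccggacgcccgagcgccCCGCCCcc
ABCB6, chr2:219218959-219219208, minus strand: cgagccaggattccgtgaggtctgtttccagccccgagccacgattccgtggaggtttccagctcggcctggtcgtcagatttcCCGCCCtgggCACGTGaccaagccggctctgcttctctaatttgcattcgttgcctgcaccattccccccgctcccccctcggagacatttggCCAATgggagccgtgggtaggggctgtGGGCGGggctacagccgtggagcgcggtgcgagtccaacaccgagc
ABCE1, chr4:145098061-145098310, plus strand: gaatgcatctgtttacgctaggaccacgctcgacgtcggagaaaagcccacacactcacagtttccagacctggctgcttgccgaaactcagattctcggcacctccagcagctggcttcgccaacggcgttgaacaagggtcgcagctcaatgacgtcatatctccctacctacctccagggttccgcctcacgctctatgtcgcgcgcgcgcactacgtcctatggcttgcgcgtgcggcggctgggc
ABCF2, chr7:151227206-151227455, minus strand: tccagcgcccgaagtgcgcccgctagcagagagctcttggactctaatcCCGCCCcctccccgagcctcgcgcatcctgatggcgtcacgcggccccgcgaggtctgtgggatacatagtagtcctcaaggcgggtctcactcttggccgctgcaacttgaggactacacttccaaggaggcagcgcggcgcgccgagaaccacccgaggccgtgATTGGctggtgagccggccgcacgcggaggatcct

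The ABCA2 window held 6 copies of GGGCGG, of which 2 shared bases, and the other ABCA2 window held none. The ABCB6 window held 2 copies of GGGCGG, 1 CCAAT and 1 CACGTG. The ABCF2 window held 1 GGGCGG and 1 CCAAT, and the ABCE1 window held none of these motifs. GGGCGG occurred in the windows of 9 of 9 genes that rose and had a window, in 2 of 5 that fell, in 9 of 12 tested genes that were not called and in 0 of 6 that were not tested, and it was found for 46.2% of the 27305 genes with any window. The median GC content was 68.4% for windows of rising genes, 66.4% for falling, 58% for not called and 42.8% for untested genes, and 58% for all windows. Falling genes thus had the higher GC content but the lower share with GGGCGG when set beside genes that were not called. CACGTG occurred for 3 of 9 rising genes (ABCA1, ABCB6 and ABCB9), 0 of 5 falling, 2 of 12 not called and 2 of 6 untested genes, and for 7.73% of all genes. CCAAT occurred for 3 of 9 rising, 2 of 5 falling, 2 of 12 not called and 3 of 6 untested genes, and for 37% of all genes. TGACNNNGC, the core of the antioxidant response element, occurred in the same order for 4 of 9, 1 of 5, 4 of 12 and 0 of 6, and for 13.2% of all genes. The p53 half-site occurred for 2 of 9, 1 of 5, 2 of 12 and 2 of 6, and for 6.8% of all genes. These matches describe letters in the windows and not binding.

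Drug exporters are of interest in cells exposed to an alkylating agent, since such pumps can expel drugs and their conjugates. Of a list of 10 such genes, 9 were in the table and 7 were tested. Among these, ABCC5 rose, ABCC4 and ABCC6 fell, and 4 did not pass. Called genes were 42.9% of the 7, beside 36.4% of all genes tested. The share that was higher was 14.3% beside 19.2%, and the share that was lower was 28.6% beside 17.1%. The median log2 fold change of the 7 was -0.06. ABCG2, the breast cancer resistance protein, was not analysed here.

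ABCC4 (MRP4), which exports cyclic nucleotides, prostaglandins and several drugs, lies at chr13:95019835-95301451 (GRCh38, gene ID 10257). Its normalised read counts were 75.5, 76.2 and 75.4 CPM in the 3 control samples and 64.3, 60.9 and 62.7 CPM in the 3 4HC samples. The controls were almost equal and every treated sample lay well below them. Its mean fell by 17.2%, from 75.7 ± 0.427 to 62.6 ± 1.68 CPM (log2 fold change -0.27, SE 0.05, adjusted p = 3.32e-06, edgeR's quasi-likelihood test).

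ABCC5 (MRP5), a close relative that also exports cyclic nucleotides, had 123, 117 and 123 CPM in controls and 134, 128 and 132 CPM in 4HC. In CPM, all treated samples exceeded all controls, by a small margin at the nearest pair. In TPM the groups overlapped, at 38.39, 34.64 and 36.54 in controls and 39.71, 37.95 and 38.75 in 4HC. The log2 fold change was 0.12 (SE 0.04, adjusted p = 0.0160), and the call was lost without control replicate 2 or 4HC replicate 1 (adjusted p up to 0.0870) and in the 4 limma settings (up to 0.199). The TPM of ABCC4 over that of ABCC5 was 0.594 ± 0.0251 in controls and 0.456 ± 0.00582 in 4HC (n = 3 each), and these ratios did not overlap between the groups. The ratio restates the opposite calls of the 2 genes in the same samples and adds no separate support.

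ABCC6 (MRP6), known for its loss in pseudoxanthoma elasticum, had 10.2, 12.6 and 12.9 CPM in controls and 8.69, 10.2 and 8.51 CPM in 4HC. The lowest control and the highest treated sample nearly coincided, so the groups overlapped. The log2 fold change was -0.38 (SE 0.10, adjusted p = 0.00318). Its reads lay mainly on short transcripts, the 2 leading ones having an effective length of 430 bases and the same estimated counts. ABCC6 also has near-identical pseudogene copies, so the assignment of its reads is uncertain.

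ABCC1 (MRP1), which exports glutathione conjugates, had 82.3 ± 4.09 CPM in controls and 82.7 ± 2.83 CPM in 4HC (n = 3 each). Its log2 fold change was 0.01, with a 95% interval from -0.08 to 0.10 (adjusted p = 0.930), so that a change beyond this range was not seen at this depth. ABCC10 (MRP7) had 25.1 ± 2.06 CPM in controls and 24.0 ± 1.52 CPM in 4HC, with an interval from -0.20 to 0.08. ABCC2 (MRP2), the exporter of conjugates into bile, and ABCC11 (MRP8) had means below 1 CPM in both groups, with intervals from -1.59 to 0.16 and from -0.29 to 1.09. These wide intervals allow sizeable changes in either of these 2 genes.

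ABCB1, which encodes P-glycoprotein, had 1, 3 and 1 counts in controls and 2, 1 and 2 counts in 4HC, beside totals of at least 16133786 counts per sample. ABCC3 (MRP3) had 1, 1 and 0 counts in controls and was at 0 in every treated sample, and a count of 0 allows up to 3 counts. These 2 exporters were therefore at the floor in both groups.

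Outside the ABC family, genes linked to drug resistance or export were also read, and not all of them encode exporters. SLC47A1, a proton-coupled exporter of organic cations, had 18.2, 19.0 and 18.6 CPM in controls and 24.6, 25.3 and 23.01 CPM in 4HC. It rose without overlap, with a log2 fold change of 0.39 (adjusted p = 1.23e-05). MVP, the major vault protein, fell by 0.14 on the log2 scale (adjusted p = 0.0396, and 0.110 with DESeq2) and SLC47A2 was not tested. Of 4 xenobiotic sensors, the receptors NR1I2 and NR1I3 had a mean below 1 count in both groups, and neither AHR nor NFE2L2 passed the test. NFE2L2, the regulator of antioxidant genes, had 130 ± 2.52 CPM in controls and 123 ± 2.33 CPM in 4HC (adjusted p = 0.130).

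Sterol and phospholipid transporters moved mostly upward. Of 11 such genes, 10 were listed and 7 were tested, and of these 5 rose (4 with DESeq2), none fell, also at an unadjusted p under 0.05, and 2 did not pass, with a median log2 fold change of 0.30. Those that rose were 71.4% of the 7, beside 19.2% of all genes tested. They are the same 5 rising genes already counted in subfamily A and not a separate observation. ABCG5, which exports plant sterols, was not analysed here.

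ABCA2, a transporter of late endosomes and lysosomes, lies at chr9:137007234-137028922 (gene ID 20). It had 66.6, 70.2 and 65.0 CPM in controls and 93.6, 84.9 and 86.7 CPM in 4HC. The treated samples lay far above the controls, although they also spread more widely. The mean was 31.4% higher, at 88.4 ± 4.62 against 67.3 ± 2.62 CPM (log2 fold change 0.39, SE 0.05, adjusted p = 9.28e-10).

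ABCA7, a phospholipid transporter known from the genetics of Alzheimer disease, had 45.6, 47.7 and 47.3 CPM in controls and 58.3, 56.5 and 54.5 CPM in 4HC. The groups were clearly apart, with a log2 fold change of 0.27 (SE 0.05, adjusted p = 3.00e-05). ABCA5, an endolysosomal protein linked to cholesterol, had 13.1, 12.4 and 11.8 CPM in controls and 14.2, 15.8 and 15.98 CPM in 4HC. It was also higher in every treated sample, with a log2 fold change of 0.30 (SE 0.09, adjusted p = 0.00512). The call was lost with limma on log2(TPM + 0.1) (adjusted p = 0.0534) and was near the threshold with DESeq2 (0.0412). The coordinates of ABCA5 overlap those of ABCA10, whose mean was 41.2 counts beside 227 for ABCA5.

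ABCA3 had 193, 197 and 197 CPM in controls and 210, 213 and 207 CPM in 4HC. The groups did not overlap, but the log2 fold change was only 0.10 (SE 0.03, adjusted p = 0.0195) and was not called without control replicate 1 or 4HC replicate 2 (adjusted p up to 0.0981) or by limma on TPM (up to 0.0883). ABCA1, which loads cholesterol onto apolipoprotein A-I, had 1.17, 1.48 and 2.11 CPM in controls and 2.96, 1.97 and 2.45 CPM in 4HC. Its highest control exceeded its lowest treated sample, so that the largest log2 fold change among the called genes (0.63, SE 0.23, adjusted p = 0.0276) was also the least precise of them. Without control replicate 1, control replicate 2 or 4HC replicate 1 it was not called (adjusted p up to 0.181), nor was it with DESeq2 (0.130) or in the 4 limma settings (up to 0.234).

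ABCG1 and ABCG4, which pass cholesterol to high-density lipoprotein, did not pass the test. ABCG4 had 2.71, 2.83 and 2.84 CPM in controls and 3.62, 4.01 and 3.12 CPM in 4HC (adjusted p = 0.109), a low gene whose groups did not overlap. ABCG1 had 5.42 ± 0.628 CPM in controls and 6.31 ± 0.653 CPM in 4HC (adjusted p = 0.210).

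Outside the lists, ABCA10 had 2.83 ± 0.383 CPM in controls and 2.20 ± 0.429 CPM in 4HC, with an interval of the log2 fold change from -0.77 to 0.04. ABCB11, the bile salt export pump, had 0.834 ± 0.237 CPM in controls and 1.10 ± 0.0584 CPM in 4HC, with an interval from -0.23 to 1.01.

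The liver X receptors (LXRs) are sterol-sensing nuclear receptors that switch on ABCA1 and ABCG1. Of 7 other genes of this pathway, 6 were tested, 2 rose and 1 fell (1 and 1 with DESeq2, and 2 and 2 at an unadjusted p under 0.05), which was 50% of the 6 beside 36.4% of all genes. LPCAT3, a phospholipid-remodelling enzyme, had 55.4, 55.7 and 52.8 CPM in controls and 69.3, 61.5 and 66.0 CPM in 4HC, higher without overlap (log2 fold change 0.26, adjusted p = 2.74e-05). RXRA, the partner receptor, rose by 0.15 (adjusted p = 0.0383, and 0.145 with DESeq2). SREBF1, a regulator of fatty acid synthesis, fell by 0.18 (adjusted p = 4.33e-05, all by edgeR's quasi-likelihood test and on the log2 scale). The receptors themselves, NR1H2 and NR1H3, did not pass, with log2 fold changes of -0.09 and -0.33 (adjusted p = 0.253 and 0.0827).

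Of the 4 mitochondrial transporters, all were tested, 2 rose (1 with DESeq2) and none fell, also at an unadjusted p under 0.05. The 2 that rose were 50% of the 4, beside 19.2% of all genes tested. ABCB6, a porphyrin transporter placed at mitochondria and at other membranes, lies at chr2:219209772-219218958 (gene ID 10058). It had 50.0, 49.1 and 46.9 CPM in controls and 61.5, 59.8 and 63.7 CPM in 4HC. Every treated sample lay well above the highest control, and the log2 fold change was 0.34 (SE 0.05, adjusted p = 1.84e-07).

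ABCB10, an inner-membrane protein needed for heme synthesis, had 62.6, 66.0 and 68.3 CPM in controls and 69.3, 70.9 and 73.5 CPM in 4HC. Its groups were only just apart (log2 fold change 0.12, SE 0.05, adjusted p = 0.0469), and it was not called without control replicate 1, control replicate 2, 4HC replicate 2 or 4HC replicate 3 (adjusted p up to 0.261). It was also not called with DESeq2 (adjusted p = 0.141), with DESeq2 size factors (0.0582), without a low-count filter (0.0687) or by limma on TPM (up to 0.0621). ABCB8 had 33.4 ± 0.961 CPM in controls and 34.5 ± 2.52 CPM in 4HC, with an interval of the log2 fold change from -0.07 to 0.17.

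Peroxisomal transporters import fatty acids for breakdown. ABCD2, which carries very long-chain and polyunsaturated fatty acids, lies at chr12:39530965-39651333 (gene ID 225). It had 59.3, 56.8 and 55.4 CPM in controls and 42.5, 42.2 and 46.0 CPM in 4HC. The groups were far apart, and the mean fell by 23.8%, from 57.2 ± 1.98 to 43.6 ± 2.08 CPM (log2 fold change -0.39, SE 0.05, adjusted p = 2.22e-08).

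ABCD3 (PMP70), the most abundant of subfamily D per length, had 84.2, 79.9 and 76.5 CPM in controls and 84.3, 88.6 and 85.5 CPM in 4HC. Its groups all but touched and the test was not passed (log2 fold change 0.10, interval 0.01 to 0.19 before adjustment, adjusted p = 0.0653). PEX19, which brings these proteins to the peroxisome, fell by 0.13 on the log2 scale (adjusted p = 0.0119), while its membrane receptor PEX3 did not pass (adjusted p = 0.222).

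At the lysosome, ABCB9 (TAPL), a peptide transporter, had 25.0, 27.0 and 24.4 CPM in controls and 29.0 CPM in each of the 3 treated samples. It was above all controls, with a log2 fold change of 0.19 (SE 0.06, adjusted p = 0.0154). Without control replicate 1 or control replicate 3 the call was lost (adjusted p up to 0.0929), as it was with DESeq2 (0.0903) and in the 4 limma settings (up to 0.206), and the coordinates of ABCB9 overlap those of ARL6IP4 and OGFOD2. ABCD4, which takes vitamin B12 out of lysosomes, had 18.4 ± 0.677 CPM in controls and 19.3 ± 1.70 CPM in 4HC (adjusted p = 0.469). Its partners LMBRD1 and MMACHC fell, by 0.21 and 0.17 on the log2 scale (adjusted p = 0.0110 and 0.0439, and 0.0564 and 0.146 with DESeq2), each with overlap between the groups.

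The peptide transporters of antigen presentation are ABC proteins with names of their own. TAP1 had 171, 182 and 174 CPM in controls and 195, 197 and 191 CPM in 4HC, and rose (log2 fold change 0.15, adjusted p = 0.00117). TAP2, with which it forms a dimer, had 92.0, 91.0 and 101 CPM in controls and 82.9, 80.7 and 84.3 CPM in 4HC, and fell (log2 fold change -0.20, adjusted p = 0.000345). Both were without overlap and in opposite directions. CFTR, a chloride channel of subfamily C, had 4.28 ± 0.629 CPM in controls and 4.75 ± 1.19 CPM in 4HC (adjusted p = 0.509).

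ABCC9 (SUR2), the regulatory subunit of ATP-sensitive potassium channels, had 16.8, 13.9 and 13.5 CPM in controls and 15.99, 17.1 and 17.5 CPM in 4HC, with overlap (log2 fold change 0.20, adjusted p = 0.0665). Its relative ABCC8 (SUR1) had between 1 and 4 counts per sample. Of the pore subunits of these channels, KCNJ11 rose from 8.80 ± 0.427 to 10.98 ± 1.395 CPM (log2 fold change 0.32, adjusted p = 0.0140, and 0.0825 with DESeq2) and KCNJ8 had a mean below 1 count.

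The 4 genes without membrane domains were the most abundant group, with a summed level of 264 ± 6.75 TPM in controls and 229 ± 0.844 TPM in 4HC (n = 3 each). All 4 were tested, 2 fell and none rose, also with DESeq2 and at an unadjusted p under 0.05. The 2 that fell were 50% of the 4, beside 17.1% of all genes tested. ABCE1 lies at chr4:145098311-145129889 (gene ID 6059) and had 347, 330 and 341 CPM in controls and 267, 286 and 277 CPM in 4HC. The highest treated sample lay far below the lowest control. Its mean fell by 18.4%, from 339 ± 8.46 to 277 ± 9.87 CPM (log2 fold change -0.29, SE 0.03, adjusted p = 5.45e-10), the lowest adjusted p among the ABC genes. Its coordinates overlap those of ANAPC10, which had a mean of 251 counts beside 5035 for ABCE1.

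ABCF2, a relative of yeast proteins of ribosome assembly and translation, lies at chr7:151211484-151227205 (gene ID 10061). It had 71.2, 71.1 and 75.2 CPM in controls and 58.8, 59.3 and 57.7 CPM in 4HC. The groups were far apart, with a log2 fold change of -0.31 (SE 0.05, adjusted p = 4.91e-07). Its coordinates overlap those of ABCF2-H2BE1, a separate entry of the table. The mean counts of both were alike, at 1073 and 997, so the division of reads between them is uncertain. ABCF2-H2BE1 had 63.3 ± 2.54 CPM in controls and 58.5 ± 4.17 CPM in 4HC (adjusted p = 0.0772). With both summed the log2 fold change of ABCF2 was -0.21, and the call was kept.

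ABCF1, a factor of translation initiation, had 87.0 ± 3.77 CPM in controls and 87.4 ± 5.29 CPM in 4HC, with an interval from -0.09 to 0.10 (adjusted p = 0.932). The TPM of ABCF2 over that of ABCF1 was 0.613 ± 0.00715 in controls and 0.495 ± 0.0336 in 4HC. ABCF3 had 63.5, 65.1 and 65.9 CPM in controls and 62.4, 61.9 and 60.4 CPM in 4HC, apart but not past the test (log2 fold change -0.07, adjusted p = 0.225). Among genes that work with ABCE1 and ABCF1, the release factor ETF1 fell by 0.15 on the log2 scale, from 347 ± 5.46 to 312 ± 6.77 CPM (adjusted p = 0.000170). EIF2S1, a subunit of the initiation factor eIF2, fell by 0.11 (adjusted p = 0.0135). The rescue factors PELO and HBS1L and the activator GCN1 did not pass (adjusted p = 0.753, 0.814 and 0.248). Over the 12 partner genes named with ABC proteins, 11 were tested, 1 rose and 5 fell (0 and 3 with DESeq2). By edgeR, 9.09% of the 11 were higher and 45.5% lower, beside 19.2% and 17.1% of all genes tested.

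**Figure D3:**
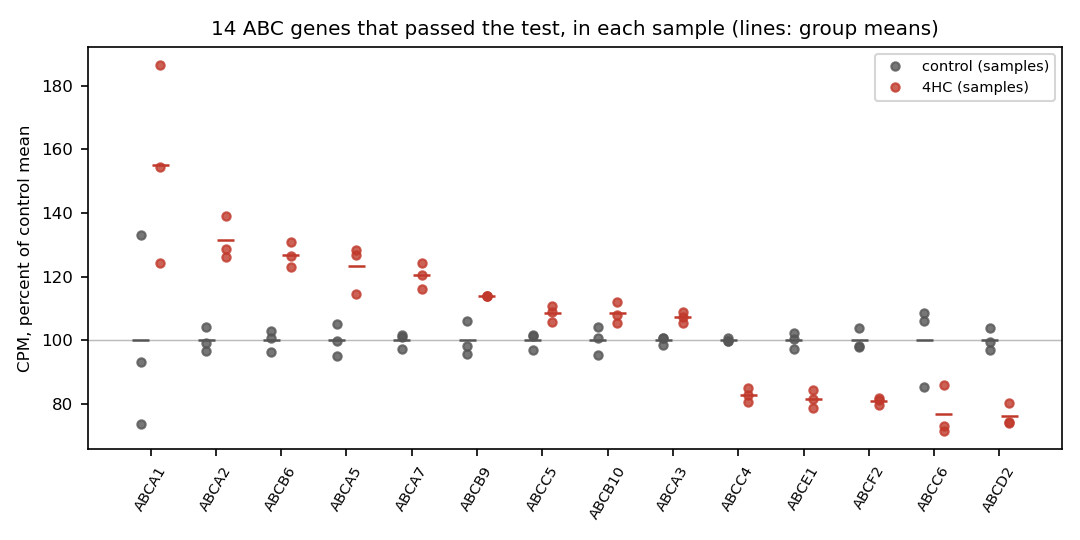
The plot by sample gives the CPM of 14 ABC genes with an adjusted p below 0.05, as percent of its control mean, with samples as points and group means as lines. In 12 of the genes the 3 4HC points lie on 1 side of all 3 control points, and ABCA1 and ABCC6 are the 2 whose groups overlap.

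Reads were also assigned to transcripts by the authors, as estimates that share reads between overlapping transcripts, and these are described without a test. For ABCA2, the 2 leading transcripts were both higher in 4HC, from 686 ± 49.7 to 847 ± 32.6 expected counts and from 368 ± 32.1 to 567 ± 79.7. For ABCB6, the leading transcript went from 757 ± 13.2 to 906 ± 45.0 expected counts, and a minor one made up 4.72% of the gene in controls and 10.3% in 4HC. For ABCC5, the leading transcript went from 1111 ± 169 to 1387 ± 96.5 expected counts, and the third from 202 ± 20.1 to 164 ± 7.84. The whole-gene value of ABCC5 thus joined transcripts that differed in direction.

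For ABCD2, the leading transcript had 630, 550 and 574 expected counts in controls and 542, 411 and 595 in 4HC, with overlap. Its second transcript had 266, 295 and 272 in controls and 101, 229 and 109 in 4HC, lower in every treated sample. The second transcript made up 29.7% of the gene in controls and 20.6% in 4HC. For ABCE1, a single transcript held 92.8% of the gene in controls and 92.5% in 4HC, and it went from 5142 ± 21.7 to 4187 ± 122 expected counts.

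**Figure D4:**
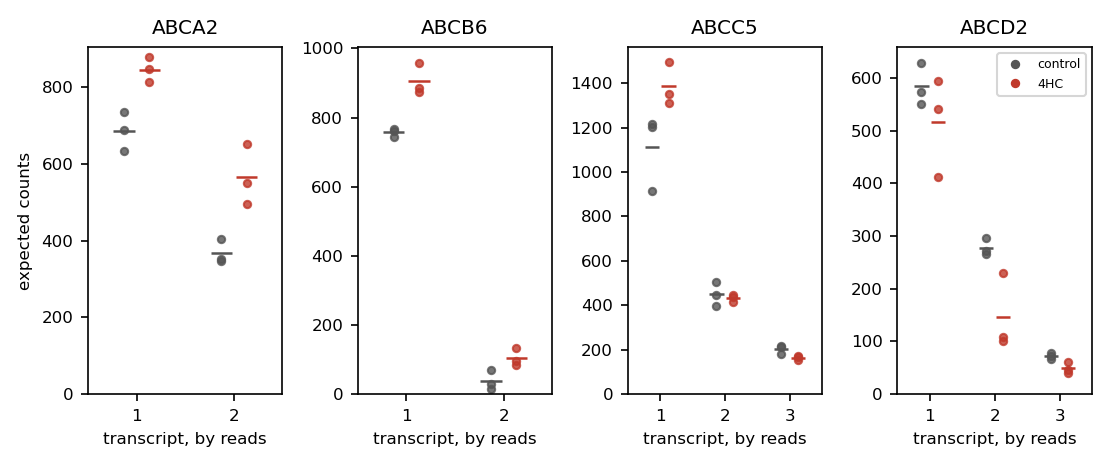
The plot of transcripts gives expected counts for the leading transcripts of ABCA2, ABCB6, ABCC5 and ABCD2, ranked by reads, with samples as points and group means as lines (grey, control; red, 4HC). The second ABCD2 transcript was lower in all 3 4HC samples, and both ABCA2 transcripts were higher.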

How the data were processed

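RNA was extracted with TRIzol from 3 control and 3 4HC-treated COV434 samples and sequenced by BGI. Per the labels, reads were filtered with SOAPnuke. The submitters' processing notes name HISAT2, Bowtie2, RSEM 1.3.1, DESeq2 1.4.5 and GRCh38.p13, without the role of each. The authors deposited expected counts, TPM and FPKM per gene and sample, and the same for 79213 transcripts. A second gene table held identical values and was not used, and columns with the authors' own fold changes, p-values and q-values were not used either. Whether counting used strand was not given in the sources used here. Replicates of a group differed by more than sampling noise (chi-square per gene 1.70 to 2.46).

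Expected counts were rounded, normalised by TMM, filtered by filterByExpr and tested across 12368 genes with edgeR 4.0.16 (glmQLFit, glmQLFTest, condition only) in R 4.3.3, with Benjamini-Hochberg adjustment over all genes and a threshold of 0.05. The SE is the log2 fold change over the root of the F statistic. The method was tested on simulated data. CPM are TMM-normalised. Alternatives were DESeq2 1.42.0, limma 3.58.1 on log2 of deposited TPM or FPKM plus 1 or 0.1, other size factors and filters, the replicate block, the study's fold rule, and each sample left out. With 3 against 3 samples an exact permutation test cannot go below p = 0.1, so none was used.

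Every ABC gene with an adjusted p below 0.05, every listed drug exporter, the most abundant gene of each subfamily and untested genes were named by rule. ABCA10, ABCB8, ABCB11, ABCC9, ABCD4, ABCF1, ABCG4 and genes of other lists that did not pass were named beside them. This was done after their values were seen, to complete each list. The genes and lists were chosen with earlier results of these data known. A few genes are included in the counts and sums but not reported here by name or drawn.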

Additional observations from a re-analysis of the deposited data

How the results depend on the processing

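Calls were followed over 17 alternatives, which leave out the study's fold rule and include the sum of ABCF2 with its overlapping entry. In these, 8 of the 15 called ABC genes kept their call and direction in each one (ABCA2, ABCA7, ABCB6, ABCC4, ABCC6, ABCD2, ABCE1 and ABCF2), and 7 lost the call in at least 1, among them ABCA1, ABCA3, ABCA5, ABCB9, ABCB10 and ABCC5. None reversed. Sums of ABCF2 with its overlapping entry were added after seeing the data. The number of genes higher in 4HC was 10 in the reported test, 6 with DESeq2, 4 with limma on log2(TPM + 1), 3 on log2(TPM + 0.1), and 6 on log2(FPKM + 1) as well as on log2(FPKM + 0.1). The number lower was 5 in each of these. Over all genes, 3340 were called with DESeq2, 3685 and 3689 on TPM and 3606 and 3609 on FPKM, beside 4497. With the study's rule (fold change of at least 2, unadjusted p under 0.05) applied to the edgeR fit, 0 were higher and 0 lower, and 142 of all genes were called. The cause of these differences was not tested, except that the fold rule asks for a larger change by construction.

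The median log2 fold change of the ABC genes, 0.11, was 0.13 when scaled by library size only, which moved the median of all genes by 0.02. It was 0.0735 on log2(TPM + 1), 0.0907 on log2(TPM + 0.1) and 0.0817 on log2(FPKM + 1). With 1 sample left out, 7 to 9 genes were higher, 5 were lower, and 3622 to 4246 of all genes were called. ABCA1 lost its call without control replicate 1, control replicate 2 or 4HC replicate 1, ABCA3 without control replicate 1 or 4HC replicate 2, and ABCB9 without control replicate 1 or control replicate 3. ABCB10 lost it without control replicate 1, control replicate 2, 4HC replicate 2 or 4HC replicate 3 and ABCC5 without control replicate 2 or 4HC replicate 1. Adjusted p without a sample reached 0.181 for ABCA1 and 0.261 for ABCB10.

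Samples with the same number did not deviate together (correlations of deviations 0.019, 0.077 and 0.022). No pairing by number was seen, although this cannot show whether the samples were prepared in pairs. With a replicate block, 9 genes were higher, 5 were lower, 4213 of all genes were called and the median was 0.11. Genes below about 1 CPM (ABCC2, ABCC11, ABCB11) were limited by depth.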
